A study of Mus musculus with 15 samples.

Results

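Cd36 and 9 genes typical of adipocytes were followed through whole primary mammary tumours of 5 types. The 10 genes, Cd36, Fabp4, Adipoq, Cfd, Car3, Lpl, Pparg, Lep, Cidec and Retn, were taken by symbol from the array annotation. Each of the 10 was found there under 1 transcript cluster, the array's unit of measurement, among 35556 clusters and 22008 named genes in all. Every value below is a log2 signal, so that a difference of 1 is a doubling, and signals of different genes cannot be set against each other.

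Each type was grown in 3 female mice and each tumour was measured on 1 array, 15 in all. 67NR (non-metastatic) and 4T1.2 (metastatic) were grown in Balb/c mice, as was EMT6.5, also a metastatic line, while EO771 and its metastatic derivative EO771.LMB were grown in C57Bl/6 mice. All cells were implanted in the mammary fat pad of mice given as 6 to 8 weeks old in the labels, with no other treatment. The lines set limits on the models, since 67NR and the parent of 4T1.2 are subpopulations of 1 tumour, 4T1.2 and EMT6.5 are single-cell clones, EO771.LMB came from 1 lung nodule after passage in mice, and the methods describe mCherry-expressing tumours for the 4 types of both pairs. Both pairs differ in line of origin and in mouse strain together, which cannot be told apart.

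Cd36 is a scavenger receptor that takes up long-chain fatty acids and binds thrombospondins, and adipocytes, macrophages and the endothelium of small vessels all carry it. In fat tissue, lipoprotein lipase (Lpl) frees fatty acids from circulating triglycerides, Cd36 brings them into the cell and the carrier protein Fabp4 moves them onwards, while Pparg is the nuclear receptor that drives fat cell differentiation and switches on much of this set. Adipocytes also secrete adiponectin (Adipoq), leptin (Lep), resistin (Retn) and adipsin (Cfd), and the mammary fat pad in which these tumours grew is largely fat.

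Promoters of 7 of the 10 genes were in the RefSeq table used here (GRCm38.p6), as 10 windows of 300 bases that run from 250 bases before a start site to 50 after it. The windows of Cd36, Adipoq and Cfd are shown because these genes varied together between tumours of one type. That of Lep is shown because it did not vary with them, though its signal was low. The Cd36 window lies at chr5:17835847-17836146 on the minus strand, at a start site inside the annotated gene (17781690 to 17888959). The Adipoq window lies at chr16:23146286-23146585, the Cfd window at chr10:79890603-79890902 and the Lep window at chr6:29059971-29060270, all on the plus strand. Sequences run 5′ to 3′ and capitals mark matches to AGGTCA, the half-site of Pparg and other nuclear receptors, to TTNNGCAA, the form bound by C/EBP proteins, to TATAAA, or to CCAAT, each searched on both strands.
Cd36: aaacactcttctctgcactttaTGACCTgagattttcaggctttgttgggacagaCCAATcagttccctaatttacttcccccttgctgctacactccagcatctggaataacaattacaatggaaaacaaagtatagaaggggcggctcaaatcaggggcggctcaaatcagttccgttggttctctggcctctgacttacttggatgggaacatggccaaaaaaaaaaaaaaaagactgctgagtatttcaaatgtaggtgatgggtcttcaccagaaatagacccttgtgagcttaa
Adipoq: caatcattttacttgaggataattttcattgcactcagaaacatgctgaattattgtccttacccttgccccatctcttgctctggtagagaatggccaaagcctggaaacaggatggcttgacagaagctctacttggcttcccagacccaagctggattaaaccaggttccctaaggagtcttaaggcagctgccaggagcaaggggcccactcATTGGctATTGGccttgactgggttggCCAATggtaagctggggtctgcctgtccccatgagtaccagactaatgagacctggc
Cfd: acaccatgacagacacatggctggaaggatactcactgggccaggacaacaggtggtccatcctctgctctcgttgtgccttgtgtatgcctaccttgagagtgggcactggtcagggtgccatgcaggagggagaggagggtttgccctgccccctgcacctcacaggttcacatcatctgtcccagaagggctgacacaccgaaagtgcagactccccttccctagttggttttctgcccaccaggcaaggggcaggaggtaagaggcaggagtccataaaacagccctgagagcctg
Lep: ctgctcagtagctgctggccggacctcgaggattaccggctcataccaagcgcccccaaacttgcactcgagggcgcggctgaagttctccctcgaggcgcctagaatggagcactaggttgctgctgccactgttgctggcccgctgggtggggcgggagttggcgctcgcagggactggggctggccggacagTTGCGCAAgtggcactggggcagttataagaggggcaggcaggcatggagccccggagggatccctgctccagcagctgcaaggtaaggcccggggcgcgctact
The Cd36 window held AGGTCA on its minus strand at position -228 from the start and CCAAT at -195. The Adipoq window held CCAAT on the minus strand at -34 and -27 and on the plus strand at -7. No match was found in the Cfd window, and in the Lep window a palindromic stretch at -55 matched TTNNGCAA on both strands, so that these matches overlap. AGGTCA stood in 3 of the 10 windows against 16.3% of all 32851 windows, TTNNGCAA in 3 against 10.8%, TATAAA in 1 against 13.6% and CCAAT in 4 against 37.4%. Windows of one gene are not separate observations, as Pparg has windows 1 to 3 and Cidec windows 1 and 2. The AGGTCA windows were that of Cd36 and Pparg windows 1 and 2. Those with TTNNGCAA were Pparg window 3, Cidec window 2 and that of Lep. Such matches describe the letters in these windows only.

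The arrays were alike in overall signal, with medians between 6.32 and 6.44, and r over clusters was 0.983 to 0.989 within a type and 0.92 to 0.989 across types. The columns of EO771 tumour 2 and EMT6.5 tumour 1 carry a suffix of unstated meaning in the deposited table. Skeletal muscle genes were high in EMT6.5 tumours 1 and 3, which bears on Car3 and is given there.

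Cd36 had its highest level in 67NR and its lowest in EO771.LMB. The 67NR tumours had Cd36 signals of 10.39, 10.03 and 10.27 (mean 10.23 ± 0.18, SD, n = 3) and the EMT6.5 tumours 10.35, 10.07 and 9.99 (10.14 ± 0.19). The EO771 tumours followed with 9.20, 9.79 and 9.56 (9.51 ± 0.30), ahead of 4T1.2 with 8.87, 9.61 and 8.49 (8.99 ± 0.57). EO771.LMB had 8.90, 7.43 and 7.69 (8.01 ± 0.78). Of these neighbours in the order only EMT6.5 and EO771 did not overlap, and EO771.LMB tumour 1 lay inside the range of 4T1.2 while the other two lay below every other tumour.

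Fabp4, the fatty acid carrier of adipocytes and macrophages, stood lower in both metastatic types of the pairs by its mean, but with wide spread. Its signals were 9.60, 9.71 and 9.47 in 67NR and 8.85, 9.65 and 8.59 in 4T1.2. They were 10.08, 10.23 and 9.81 in EO771 against 9.83, 8.21 and 8.24 in EO771.LMB, and 10.19, 9.74 and 9.79 in EMT6.5. A single tumour, 4T1.2 tumour 2 or EO771.LMB tumour 1, reached into the range of the other type in each pair.

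Lpl differed from both in its order, with its lowest level in 67NR. The 67NR tumours had 6.93, 6.48 and 6.85 (6.75 ± 0.24) and the 4T1.2 tumours 7.65, 8.41 and 7.13 (7.73 ± 0.64). The EO771 tumours had Lpl signals of 7.98, 7.99 and 7.70 (7.89 ± 0.17), those of EO771.LMB 7.09, 7.08 and 7.26 (7.14 ± 0.10), and EMT6.5 8.09, 7.43 and 7.61 (7.71 ± 0.34). The tumours of each pair did not overlap, and they stood in opposite order in the 2 pairs.

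Among the secreted products, Adipoq, Cfd and Retn had their lowest means in EO771.LMB, and Lep varied little. Adipoq, a hormone made almost only by fat cells, was 5.95, 6.30 and 5.53 in 67NR, 6.14, 6.90 and 5.90 in 4T1.2, and 7.62, 6.34 and 6.70 in EMT6.5. It was 6.70, 6.78 and 7.08 in EO771 but 6.23, 4.81 and 4.85 in EO771.LMB, whose tumours 2 and 3 were below all the others. Cfd, the serine protease that cleaves complement factor B, was 8.15, 8.75 and 8.26 in EO771 (8.39 ± 0.32) but only 7.24, 6.31 and 6.19 in EO771.LMB (6.58 ± 0.57). In the 4T1 pair the Cfd order was the other way round, with 7.40, 6.56 and 6.93 in 67NR and 7.65, 8.52 and 7.37 in 4T1.2, and EMT6.5 lay between with 8.05, 7.56 and 7.27. Retn, which mouse fat cells secrete, was highest in EO771 with 7.12, 6.94 and 6.96 (7.01 ± 0.10), above each of the other 12 tumours, and lowest in EO771.LMB with 6.37, 6.08 and 5.98 (6.14 ± 0.21). Retn was 6.26, 6.21 and 6.41 in 67NR, 6.63, 6.54 and 6.54 in 4T1.2, and 6.81, 6.15 and 6.34 in EMT6.5. Lep, the satiety hormone, spanned only 0.73 over all 15 tumours, with type means between 5.33 (67NR and EO771.LMB) and 5.68 (4T1.2). All its signals lay below the array medians, where low signals were not told apart from none.

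Of the remaining genes, Car3 varied most and Pparg least. Car3, a carbonic anhydrase abundant in fat cells and in slow skeletal muscle, was 8.23, 8.06 and 8.20 in 67NR (8.16 ± 0.09) and 9.57, 10.63 and 8.87 in 4T1.2 (9.69 ± 0.89). It was 8.89, 9.33 and 9.10 in EO771 (9.11 ± 0.22) but 7.52, 6.49 and 5.51 in EO771.LMB (6.51 ± 1.00), with 10.27, 9.05 and 10.07 in EMT6.5. The 15 tumours thus spanned 5.12 on the log2 scale, and the EO771.LMB tumours lay below all the others. Cidec, which enlarges lipid droplets by fusing them, was 6.09, 6.37 and 6.06 in EO771 against 5.61, 5.17 and 4.82 in EO771.LMB. Its levels were 5.62, 5.37 and 5.67 in 67NR, 5.70, 6.46 and 5.80 in 4T1.2, and 6.42, 6.22 and 5.74 in EMT6.5. Pparg spanned 0.70, from a mean of 6.73 in EMT6.5 and 6.74 in 67NR to 7.18 in EO771, and EO771.LMB, lowest for 7 of the 10 genes, had the second highest Pparg mean at 7.06.

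**Figure D1:**
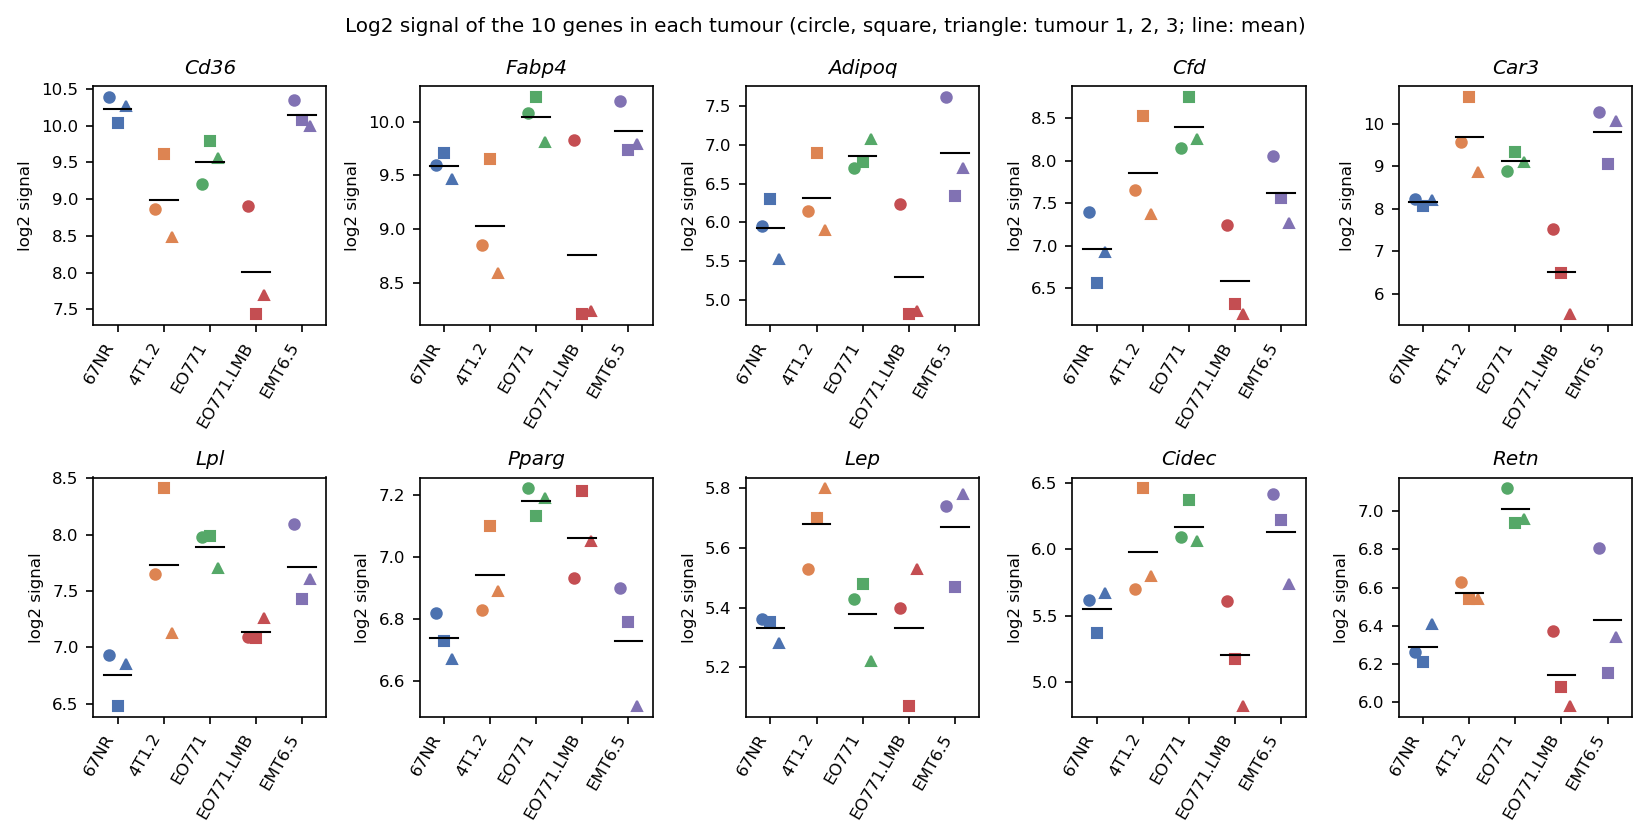
Log2 signal (y axis, its own scale in each panel) of each of the 10 genes in the 3 tumours of each type (x axis); circle, square and triangle are tumours 1, 2 and 3 and the line is the mean. EO771.LMB has the lowest mean for 7 of the 10 genes, and its tumour 1 stands above its other two for Cd36, Fabp4, Adipoq, Cfd, Car3, Cidec and Retn.

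Over the 10 genes there are 40 pairs of neighbouring types in order of mean, and the tumours overlapped in 31 of them. EO771 had the highest mean for 6 genes, EMT6.5 for 2, and 67NR and 4T1.2 for 1 each. Most steps in these orders were therefore no larger than the spread between tumours.

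The first comparison asked how metastatic 4T1.2 tumours differ from non-metastatic 67NR tumours. Cd36 was 2.36-fold lower in 4T1.2, while Car3 was 2.88-fold and Lpl 1.97-fold higher. The Cd36 difference was -1.24 (95% confidence interval -1.95 to -0.53, limma adjusted p = 0.018), and all 3 tumours of 4T1.2 were below all 3 of 67NR. The difference was 1.53 for Car3 (0.51 to 2.54, adjusted p = 0.037) and 0.98 for Lpl (0.43 to 1.52, adjusted p = 0.015). So 2 of the 10 genes were called higher, against 8.69% of all clusters, and 1 was called lower, against 9.12%. At an unadjusted p under 0.05, 5 of the 10 passed, against 29.5% of clusters, with Cfd (0.88) and Lep (0.35) added. The tumours did not overlap for 7 genes, against 32% of clusters. Of the other genes, the differences were -0.57 for Fabp4, 0.39 for Adipoq, 0.43 for Cidec, 0.28 for Retn and 0.20 for Pparg. The study singled out Cd36 from the comparisons of both pairs, so its p is no independent support in either. By qRT-PCR the study also reported lower Cd36 in whole metastatic tumours of both pairs, but no significant drop in isolated tumour cells.

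These 3 calls were close to the threshold. The Cd36 call ended without 67NR tumour 1 (-1.16, adjusted p = 0.064), 4T1.2 tumour 1 (-1.18, 0.055) or 4T1.2 tumour 3 (-0.99, 0.084). One-way analysis of variance ended the calls of Cd36 (adjusted p = 0.052) and Car3 (0.092). The Car3 call also ended without any 1 tumour of 67NR or without 4T1.2 tumour 1 or 2 (1.06, 0.16, without tumour 2), and the Lpl call without 67NR tumour 2 (0.84, 0.07) or 4T1.2 tumour 2 (0.64, 0.056) and with only the 2 types in the fit (0.98, 0.064).

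Other cells that carry Cd36 were followed by their markers, against the 8.69% of all clusters called higher and 9.12% called lower in this comparison. Macrophage markers had a mean signal of 10.1 to 10.3 in the 67NR tumours and 9.67 to 9.83 in 4T1.2, and 6 of 16 were lower, among them C1qc (-1.27), Cd163 (-1.19) and Adgre1 (-0.93). Endothelial markers had means of 7.18 to 7.39 and 7.10 to 7.18, with 3 of 18 lower, led by Aqp1 (-3.03), and 2 higher, Eng (1.65) and Flt1 (0.94). In whole tumours fewer cells of a type and less RNA per cell cannot be told apart, and the part of these cells in the Cd36 difference was not tested.

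In the EO771 pair, which asks the same question within C57Bl/6 mice, all 10 genes had lower means in EO771.LMB than in EO771, and none passed the threshold. The differences were -1.51 for Cd36 (2.84-fold lower, -2.22 to -0.79, adjusted p = 0.16), -1.28 for Fabp4 and -1.56 for Adipoq. They were -1.81 for Cfd (3.51-fold lower), -2.60 for Car3 (6.05-fold lower), -0.75 for Lpl, -0.97 for Cidec and -0.87 for Retn. Lep and Pparg differed by only -0.05 and -0.11. The adjusted p of the first 8 lay between 0.073 (Retn) and 0.43 (Lpl), and their unadjusted limma p between 5.1e-05 (Retn) and 0.011 (Lpl). At an unadjusted p under 0.05, 8 of the 10 passed, against 8.3% of clusters. Neither limma nor one-way analysis of variance called any at the adjusted threshold, where limma called 0% of all clusters higher and 0.0197%, 7 clusters, lower. Tumours of the pair did not overlap for 7 of the 10 genes, against 14.7% of clusters, and the median difference was -1.12, against 0.01 over all clusters.

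These calls turned on EO771.LMB tumour 1. Without it, 6 genes passed, with differences of -1.95 for Cd36 (adjusted p = 0.011), -1.81 for Fabp4 (0.011), -2.03 for Adipoq (0.048), -2.14 for Cfd (0.021), -3.10 for Car3 (0.012) and -0.98 for Retn (0.032). Without EMT6.5 tumour 1, which enters only through the estimate of spread, Retn alone passed (0.029). How many of all clusters passed in these fits was not counted, so the numbers of genes have no share beside them. Endothelial markers had list means of 7.03 to 7.18 in EO771 and 6.80 to 6.86 in EO771.LMB, and only Cdh5, the endothelial cadherin, passed (-1.55, adjusted p = 0.00022). Macrophage markers had means of 8.51 to 8.87 and 8.40 to 8.57 and none passed, where 0% of all clusters were called higher and 0.0197% lower. Their part in the differences was not tested.

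**Figure D2:**
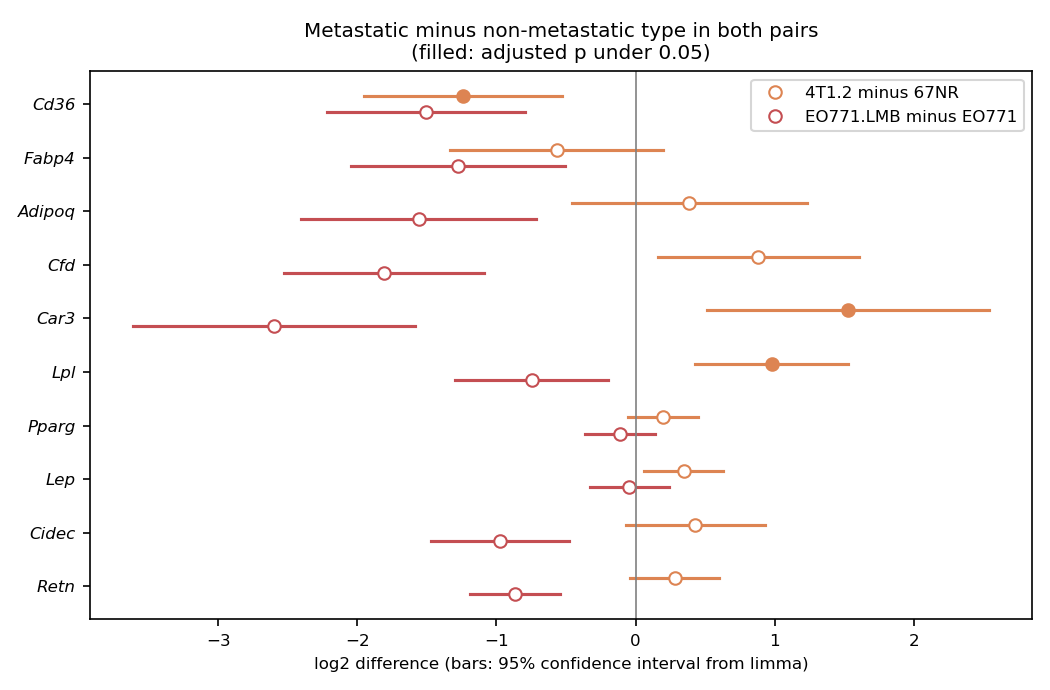
Log2 difference (x axis) of each gene (y axis) between 4T1.2 and 67NR and between EO771.LMB and EO771, with bars for the 95% confidence interval from limma; filled points have an adjusted p under 0.05. Cd36 lies at -1.24 and -1.51, while Car3 lies at 1.53 and -2.60, on opposite sides of 0.

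Whether the 2 pairs differ was tested directly, as the EO771.LMB minus EO771 difference less the 4T1.2 minus 67NR difference. For Cd36 this was -0.27 (-1.27 to 0.74, limma adjusted p = 0.81), an interval that leaves room for a difference of over 1 in the size of the change. Car3 gave -4.12 (adjusted p = 0.00091), Cfd -2.69 (0.0018), Lpl -1.72 (0.0062) and Cidec -1.40 (0.012). Retn gave -1.15 (0.0027) and Adipoq -1.95 (0.039). Thus 6 of the 10 genes were lower in this contrast, against 4.9% of clusters, and 0 higher, against 5.28%; an unadjusted p under 0.05 added no gene, against 22% of clusters. For Car3 and Lpl the difference within the 4T1 pair was itself called, in the opposite direction to the EO771 pair. Adipoq lost its call without 67NR tumour 1 or 3, 4T1.2 tumour 1 or 2, EO771.LMB tumour 2 or 3, or any of the EO771 tumours (adjusted p up to 0.098), with quantile normalization (0.052) and with one-way analysis of variance (0.1). Fabp4 gained one without EO771.LMB tumour 1 (-1.24, 0.034).

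Levels were also compared between the pairs, as the mean of EO771 and EO771.LMB less the mean of 67NR and 4T1.2. Cd36 was lower in the EO771 pair (-0.85, limma adjusted p = 0.0097), as was Car3 (-1.12, 0.016), and Pparg was higher (0.28, 0.014). These were 2 genes lower, against 19.3% of clusters, and 1 higher, against 19%, and the same 3 passed the unadjusted test, against 45.5%. Without 4T1.2 tumour 2, Lpl also passed (0.44, 0.023). Macrophage markers were lower in the EO771 pair for 15 of 16 genes (median -1.38), among them Cd163 (-3.66) and Csf1r (-2.54), the receptor for macrophage growth factor. Their part in the Cd36 difference was not tested.

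EMT6.5 was set against the mean of the other 4 types. Cd36 was higher in EMT6.5, by 0.95 (0.39 to 1.51, limma adjusted p = 0.019), and Car3 by 1.43 (0.63 to 2.23, 0.014). These 2 of the 10 genes compare with 9.93% of clusters called higher, and 0 with 9.93% called lower. EMT6.5 did not stand above every type for either gene. For Cd36 its mean was 10.14 against 10.23 in 67NR, and for Car3 9.80 against 9.69 in 4T1.2, and the tumours overlapped in both. The low means of EO771.LMB, 8.01 for Cd36 and 6.51 for Car3, are part of the mean it was set against. At an unadjusted p under 0.05, 6 of the 10 passed, against 30% of clusters. Adipoq (0.79), Cidec (0.40), Lep (0.24) and Pparg (-0.25) were the 4 added. Both calls ended without EMT6.5 tumour 1 (Cd36 0.84, adjusted p = 0.099, Car3 1.19, 0.093). The Cd36 call ended without tumour 2 (0.99, 0.056) and the Car3 call without tumour 3 (1.29, 0.077), while one-way analysis of variance ended the Cd36 call (0.055). Without EO771.LMB tumour 1 Fabp4 (0.68, 0.016) and Adipoq (0.90, 0.022) passed as well.

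Car3 in EMT6.5 stood beside skeletal muscle genes. The mean of 14 such genes was 7.42 in EMT6.5 tumour 1 and 8.05 in tumour 3, but 5.55 in tumour 2 and between 5.40 and 5.74 in the 12 tumours of the other types. Of the 14, 12 were higher in EMT6.5, among them the myosin Myh4 (3.19) and the troponin Tnnt3 (2.40). Not every muscle gene showed such a rise. Ckm was 7.34, 6.94 and 7.16 in EMT6.5 tumours 1, 2 and 3 and stayed between 6.69 and 7.34 in all tumours. Mb stayed between 5.54 and 6.13 in all tumours. Car3 was 10.27 and 10.07 in EMT6.5 tumours 1 and 3 but 9.05 in tumour 2. The highest Car3 signal of all, 10.63 in 4T1.2 tumour 2, came with a muscle mean of 5.55. With EMT6.5 tumours 1 and 3 left out, a choice made after the values were seen, the Car3 difference was 0.68 (adjusted p = 0.62) and that of Cd36 0.88 (0.31), resting on 1 tumour assumed to vary like the others. The part of muscle in these differences was not tested.

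**Figure D3:**
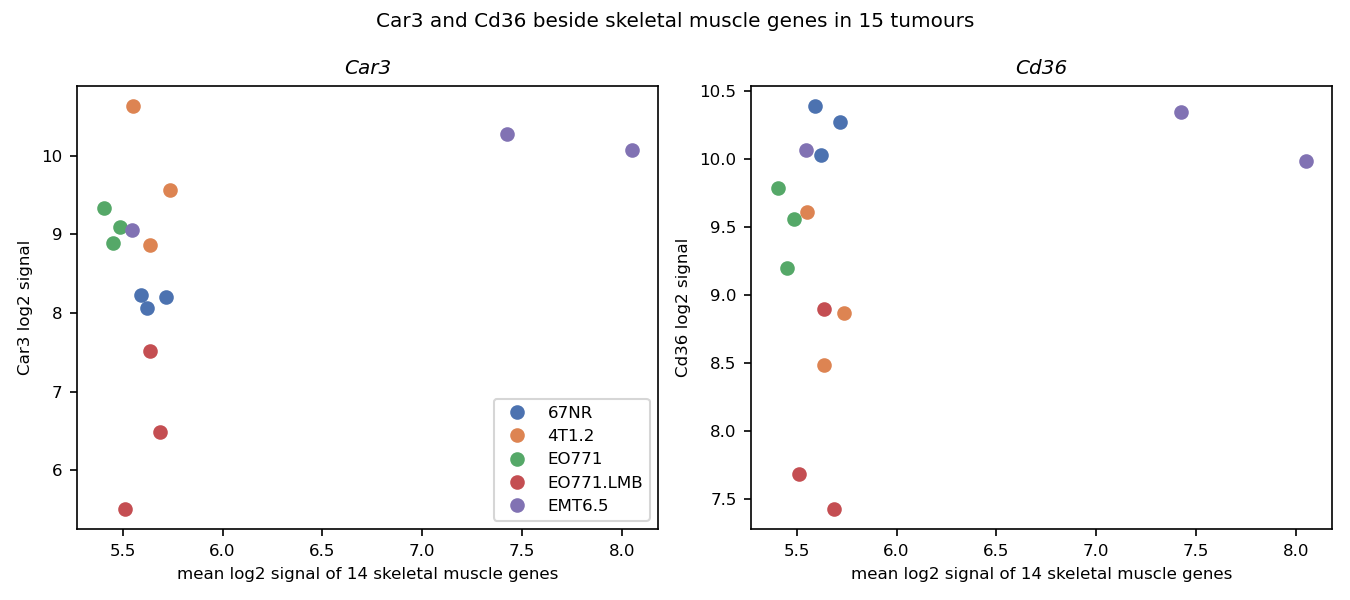
Car3 (left) and Cd36 (right) log2 signal against the mean log2 signal of 14 skeletal muscle genes in each of the 15 tumours, coloured by type. EMT6.5 tumours 1 and 3 stand apart at muscle means of 7.42 and 8.05, and the span of Car3 from 5.51 to 10.63 lies among tumours with muscle means of 5.40 to 5.74.

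Most of the genes varied widely between tumours of one type, and Retn, Lep and Pparg did not. The SD within types was 0.68 for Car3, 0.56 for Adipoq, 0.51 for Fabp4, and 0.47 for both Cfd and Cd36. These lie at percentiles 97.1 (Cd36) to 99.5 (Car3) among all clusters, and for 6 of the 10 genes, Lpl included, the SD exceeded the 90th percentile. Lep (39.6) and Pparg (23.8) lay below the median cluster, whose SD was 0.18, and Retn (56.2) near it. The mean signal of Lep was 5.48, below the array medians of 6.32 to 6.44, as were those of Cidec (5.81) and Adipoq (6.26). Low signals were not told apart from none, so the small spread of Lep says little about its RNA. Against the 1000 clusters of most similar signal the percentiles were 95.4 (Cfd) to 99.4 (Car3) for the first 5 genes, 84 for Lpl, 85.8 for Cidec, 46.9 for Retn, 42.1 for Lep and 13 for Pparg, so that Lpl was no longer above the 90th.

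The same tumours were high for several genes at once. EMT6.5 tumour 1 was the highest of its type for 9 of the 10 genes, 4T1.2 tumour 2 for 8, EO771.LMB tumour 1 and EO771 tumour 2 for 7 each, and 67NR tumour 1 for 6, whereas each tumour was highest for 29.6% to 37.9% of all clusters. The tumour named in each type was picked for having the most genes, which by itself lifts its count above such a share. Genes that vary together are also not separate observations. In EO771.LMB tumour 1 the deviation from the type mean was 0.89 for Cd36, 1.06 for Fabp4, 0.94 for Adipoq and 1.01 for Car3, but -0.06 for Lpl and -0.13 for Pparg. In 4T1.2 tumour 2 it was 0.62 for Cd36, 0.94 for Car3 and 0.68 for Lpl, but -0.03 for Retn. Lpl thus stood high in one of these tumours and not in the other.

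**Figure D4:**
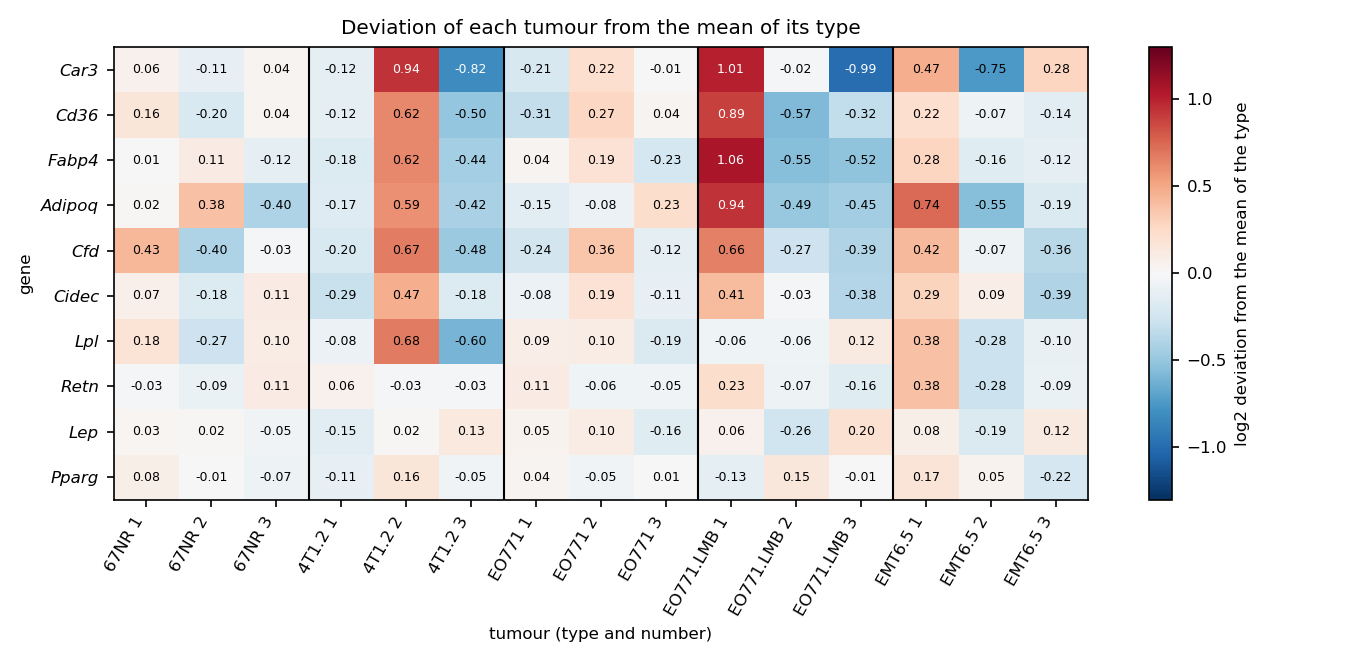
Deviation of each tumour (x axis, type and tumour number) from the mean of its type for each gene (y axis), on the log2 scale, with red above and blue below the mean. 4T1.2 tumour 2 and EO771.LMB tumour 1 are above their type means for Car3, Cd36, Fabp4, Adipoq, Cfd and Cidec, and the rows of Lep and Pparg stay within 0.26 of 0.

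Deviations of Cd36 over the 15 tumours were most like those of Fabp4 and Cfd (Pearson's r = 0.91 for both, Spearman's rho 0.76 and 0.91). For Car3, Cidec and Adipoq r was 0.80, 0.79 and 0.78, for Lpl 0.53, for Retn 0.41, for Lep 0.17 and for Pparg -0.02. Without the 2 tumours farthest from the centre, EO771.LMB tumour 1 and 4T1.2 tumour 2, r was 0.84 for Cfd, 0.75 for Fabp4, 0.59 for Cidec, 0.57 for Car3 and 0.54 for Adipoq and Lpl. These values describe 9 relations over tumours that share their arrays, and types differ in their means as well. By level, r with Cd36 was 0.82 for Fabp4, 0.66 for Adipoq, 0.64 for Car3, 0.60 for Cidec, 0.46 for Cfd, 0.28 for Retn, 0.18 for Lep, 0.11 for Lpl and -0.50 for Pparg.

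Among all named genes, those whose deviations were most like those of Cd36 were Eif2s3x (r = 0.910), Fabp4 and Cfd, then Lrrc9, Hp, Copb1, Shox2 and EG626952 (0.852). By level over the 15 tumours they were Adfp (0.904), Slc30a7, Tek, Tspan12, Lrg1, EG668668, Rps4x and Pdpn (0.866). Adfp is the older symbol of Plin2, a coat protein of lipid droplets in many cells, and Tek is the angiopoietin receptor of endothelium. For Adipoq, the genes most alike by level were Hp (0.944), Cd209b, Serpina3n, Cidec, Car3, Fabp4, Cfd and Mme (0.810), 4 of them from the set itself. By deviation they were Pik3r1 (0.906), Cd209b, Mgst1, D130062J21Rik, Fabp4, Hp, Tnfsf10 and Serpinb2 (0.835). Hp, haptoglobin, an acute phase protein that liver and fat cells secrete, was on both Adipoq lists and on that of Cd36 deviations.

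Other defining genes of adipocytes varied less, with a median SD within types of 0.173 against 0.411 for the 10 genes. Of 19 further adipocyte genes measured, 1, Thrsp, had an SD within types above the 90th percentile. Plin1, the main coat protein of the fat cell's lipid droplet, stayed between 5.96 and 6.54 in all 15 tumours, Slc2a4, the insulin-responsive glucose transporter, between 5.29 and 5.85, and Aqp7, the glycerol channel, between 5.40 and 5.80. These 3 were named after their values were seen, and their SD lay at percentiles 16.1, 30.3 and 11.6. Over all 19 genes that percentile ran from 10.4 (Cidea) to 95.2 (Thrsp). Their r with Cd36 by deviation ran from -0.31 (Cidea) to 0.71 (Pck1). The files used carry no detection values, so that low signals were not told apart from none, and a small spread there says little about the RNA. The mean of the 19 genes was 5.74 to 5.79 in EO771.LMB and 5.93 to 6.11 in EO771, and 5.97 to 6.04 in 4T1.2 against 5.87 to 6.00 in 67NR. In 4T1.2, 1 of the 19 was lower, Lipe, the hormone-sensitive lipase (-0.72, adjusted p = 0.0019), and 0 were higher. Of all clusters, 9.12% were called lower and 8.69% higher in that comparison. None passed in the EO771 pair, where 0% of all clusters were called higher and 0.0197% lower. There Thrsp, a lipogenic factor, differed by -1.41 (0.15) and Pde3b, the phosphodiesterase through which insulin restrains lipolysis, by -0.88 (0.072). In the contrast of the 2 pairs, 3 were lower, against 4.9% of all clusters, namely Thrsp (-1.92), the carboxylesterase Ces1d (-1.11) and Pde3b (-0.84). In EMT6.5, Pde3b (0.76) and Npr3 (0.72) were higher and Acsl1 (-0.60) was lower, against 9.93% of all clusters called each way.

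Genes that act with the set were examined by function, to be read against these shares of all clusters. In 4T1.2, 8.69% were called higher and 9.12% lower, and in EMT6.5 9.93% each way. In the EO771 pair 0% were called higher and 0.0197% lower. A list with none passing there therefore says little about its genes. Of 12 transcription factors of fat cell differentiation, 3 were lower in 4T1.2 than in 67NR, Ebf1 (-1.71), Cebpa (-0.75) and Cebpd (-0.64), and none was higher. None of them passed in the EO771 pair, where Ebf1 differed by -0.75 (adjusted p = 0.32). Of 13 genes of lipid droplets and lipolysis, 3 were lower in 4T1.2, the lipase Pnpla2 (-0.64), Plin2 (-0.60) and Dgat1 (-0.38), which makes triglyceride, and none passed in the EO771 pair, where Plin2 differed by -0.65 (0.17). In EMT6.5, 2 of the 13 were higher, among them Plin2 (0.77), and 1 was lower.

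Of 17 genes of fatty acid uptake and lipoprotein handling, 3 were higher in 4T1.2 and none lower. They were Acsl4 (1.24), which activates long-chain fatty acids, the endothelial lipase Lipg (0.91) and the lipoprotein receptor Vldlr (0.58). None passed in the EO771 pair. Of 12 ligands and membrane partners of Cd36, 4 were higher and 3 lower in 4T1.2, with Itga6 (1.79), Thbs2 (1.44) and Itga3 (1.14) higher and Cav1, the caveolae coat protein (-1.56), lower. None of the 12 passed in the EO771 pair, where Cd81 differed by -0.54 and Thbs1, a thrombospondin bound by Cd36, by -0.51. In EMT6.5, 6 of the 12 were higher and 3 lower, with Thbs1 (1.78) and Thbs2 (1.27) among the higher. Cd36 was higher there too, but it was lower in 4T1.2, where Thbs2 was higher. These comparisons have different references. By deviation from type means, r with Cd36 was 0.72 for Thbs1 and 0.64 for Thbs2. Over the 12 genes it ran from -0.21 to 0.72. A link between Cd36 and these ligands was not tested.

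Receptors of adipokines and complement partners of adipsin moved in both directions. Of 8 such genes, Adipor2 (0.50) and Cfb, the substrate of adipsin (0.43), were higher in 4T1.2, and the adiponectin-binding cadherin Cdh13 (-0.84) and properdin, Cfp (-0.66), were lower. None passed in the EO771 pair, where C3 differed by -0.94 (adjusted p = 0.37). In EMT6.5, 2 of the 8 were higher, among them Lepr, the leptin receptor (0.99), and 3 were lower. Of 8 brown fat genes, Dio2 was lower in 4T1.2 (-1.19) and none passed in the EO771 pair.

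Other cell types of the fat pad were checked by their markers, against the same shares of all clusters called in 4T1.2 and in the EO771 pair. Of 12 markers of fibroblasts and preadipocytes, 5 were higher and 3 lower in 4T1.2, with Ly6a (1.36), Lum (1.33) and Dpt (1.23) higher and Pdgfrb (-1.28) lower, and none passed in the EO771 pair. Of 10 genes of milk-secreting cells, Mfge8 was higher in 4T1.2 (0.75), and none passed in the EO771 pair, where Glycam1 differed by -3.43 (adjusted p = 0.39). Of 8 genes of erythroid cells and platelets, Itga2b was higher in 4T1.2 (0.41), and of 8 keratinocyte genes Lor (0.42), with none passing for either in the EO771 pair. The part of these cells in the levels of the 10 genes was not tested.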

How the data were processed

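Total RNA (200 ng a sample) of 15 whole primary tumours of 400 to 600 mm3 was hybridised by the authors to Affymetrix Mouse Gene 1.0 ST arrays, 1 per tumour. The deposited values are log2 signals made by the authors by background adjustment, quantile normalization and summarization. The methods name GCRMA while RMA and Partek 6.6 stand in the submitters' processing notes, so the algorithm is not settled. The workbook sheet and the series table held the same values (0 of 533340 differed), and 30 further per-sample columns were not used. The methods and the labels differ on the age of the mice.

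The values were used without filter or further normalization. One model with tumour type as its only term was fitted to all 15 tumours in R 4.3.3 with limma 3.58.1, and each comparison had its p-values adjusted (Benjamini-Hochberg, 35556 clusters, threshold 0.05). Tumours are numbered by mouse in the labels and were treated as separate animals. Precision is limited by the number of arrays. The steps were tested on simulated data.

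The 10 genes and the 14 gene lists (171 of 172 genes matched, 10 under an older symbol) were chosen with earlier results of these data known. The text names all 10 genes, and of each list discussed up to 4 genes past the threshold with the largest difference, or 2 where none passed. Genes named for likeness are the 8 with the highest r. A few markers (Plin1, Slc2a4, Aqp7, Cidea, Pck1, Ckm and Mb) were named after their values were seen. Alternatives were the series table, median centring, quantile normalization, leaving out clusters under the median signal, an intensity trend with a robust prior, one-way analysis of variance, only the groups compared, an unadjusted p, the mean of a gene's clusters, the tumour number as a block and each tumour left out.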

Additional observations from a re-analysis of the deposited data

Results flagged for a closer look

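For 6 of the 10 genes the change in the EO771 pair differed from that in the 4T1 pair by the test of the difference itself. All 6 were lower in this contrast, where 4.9% of all clusters were called lower and 5.28% higher. Car3 differed by -4.12 on the log2 scale (limma adjusted p = 0.00091) and Cfd by -2.69 (0.0018), Lpl by -1.72 (0.0062), Cidec by -1.40 (0.012) and Retn by -1.15 (0.0027). Adipoq differed by -1.95 (0.039), with adjusted p of 0.0052 to 0.1 over the alternatives. For Car3 that range was 0.00024 to 0.0082, for Cfd 0.00068 to 0.012, for Lpl 0.00096 to 0.025, for Cidec 0.0053 to 0.04 and for Retn 0.00048 to 0.0093. Within each of these genes all 3 EO771.LMB tumours were below all 3 EO771 tumours. The test that chose the genes includes this difference, so the separation is no added support. Over all clusters, 14.7% had no overlap in this pair, in either direction.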

How the results depend on the processing

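One-way analysis of variance called 1 gene in the 4T1 pair and 1 in EMT6.5, where limma with shared spread called 3 and 2. Limma called 8.69% of all clusters higher and 9.12% lower in the 4T1 pair, and 9.93% each way in EMT6.5. An unadjusted p called 5, 8 and 6 genes in the 4T1 pair, the EO771 pair and EMT6.5, against 29.5%, 8.3% and 30% of clusters. Leaving out EMT6.5 tumours 1 and 3, added after the values were seen, left 0 called in EMT6.5. With 1 tumour left out, the number called was 1 to 3 in the 4T1 pair, 0 to 6 in the EO771 pair, 5 to 7 for the difference between the pairs, 3 to 4 between the pairs' levels and 0 to 4 in EMT6.5, and the median SD of the genes was 0.32 to 0.432 (0.411 over all tumours). The share of all clusters called was not counted in the fits with tumours left out or with one-way analysis of variance.

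Between the pairs' levels, differences near 0 changed sign. Adipoq went from -0.05 to 0.03 with median centring and 0.01 with quantile normalization, and Fabp4 to -0.01 with the latter. With 1 tumour left out, Adipoq ranged from -0.28 to 0.10, Fabp4 from -0.18 to 0.24, Cfd from -0.09 to 0.24 and Cidec from -0.19 to 0.03. Likewise the difference between the pair changes ranged from -0.71 to 0.04 for Cd36, EO771.LMB minus EO771 from -0.15 to 0.09 for Lep, and EMT6.5 minus the others from -0.03 to 0.36 for Cfd and -0.26 to 0.07 for Retn. The cause was not tested.

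Tumours with the same number showed no large shared deviation (r from -0.168 to 0.149, median 0.0209, against -0.165 to 0.213 for other numbers). Whether tumours of one number were handled together cannot be told from these values. With the replicate block 3, 0, 6, 3 and 2 of the 10 genes were called, as without it, and the clusters called were 6176, 9, 3469, 13439 and 6872 in place of 6335, 7, 3618, 13640 and 7059. Among clusters above the median signal, where Adipoq, Cidec and Lep were not tested, 4 genes were called for the difference between the pair changes. The share of those clusters called was not counted.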
